A study of Mus musculus with 6 samples.

Results

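The chemokine and chemoattractant receptors described here are 9 genes, Ccr1, Ccr2, Cx3cr1, Cxcr2, Cxcr4, C5ar1, C3ar1, Fpr1 and Fpr2, of 22556 gene identifiers in the expression tables of the mouse pancreas. They were found by their Ensembl identifiers, and all 9 were present in every table. The genes were selected on their measured values in these same libraries, so their levels, fold changes and counts past a threshold are given as a description, without p-values, and support nothing. Expression is in TPM, a length-normalised share of all transcripts, a unit that corrects for gene length and library size, so that levels can be set side by side between genes.

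Leukocytes find an injured tissue with receptors of this kind, which are heptahelical proteins that couple mainly to inhibitory G proteins. Chemokine receptors read gradients of chemokines: Ccr1 binds Ccl3, Ccl5 and related CC chemokines, Ccr2 binds Ccl2 and Ccl7 and draws monocytes out of the bone marrow, Cx3cr1 binds the membrane-tethered chemokine Cx3cl1, Cxcr2 binds the neutrophil attractants Cxcl1 and Cxcl2, and Cxcr4 binds Cxcl12. C5ar1 and C3ar1 bind the complement fragments C5a and C3a, while Fpr1 and Fpr2 bind formylated peptides released by bacteria and by damaged mitochondria, and Fpr2 also binds Anxa1 and serum amyloid A proteins. In the pancreas, monocytes, macrophages and neutrophils are the cells usually named as carriers of most of these receptors.

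The study asked how polyI:C, a synthetic double-stranded RNA that activates Toll-like receptor 3, changes acute pancreatitis (AP) in mice. RNA of whole pancreas was sequenced from 3 groups of wild-type C57BL/6 mice at postnatal week 8, with 2 mice per group. The saline group received saline, the AP group received caerulein, a cholecystokinin analogue that overstimulates acinar cells, and the polyI:C+AP group received polyI:C before caerulein. By the study's methods, mice were male and fasted, caerulein was given intraperitoneally 10 times at intervals of 1 h at 200 μg/kg, polyI:C at 10 mg/kg, and the pancreas was taken 24 h after the first caerulein injection. Pretreatment intervals of 1 h and 8 h are described, and the interval of the sequenced mice is not given in the sources used here. There was no group with polyI:C alone, so polyI:C was seen only on top of caerulein. Whole tissue was used, so that fewer cells carrying a receptor and less receptor RNA per cell cannot be told apart.

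Total reads per library were not used here, but the spacing of low TPM values gave estimates of 3296851 and 3962046 reads for the saline libraries, 6900055 and 8846175 for AP, and 8821025 and 10826580 for polyI:C+AP. By these estimates, which count only reads on the genes measured, the saline libraries were the shallowest. How deeply each library was sequenced cannot be read from them. The acinar markers Bhlha15 (391 and 326 TPM in saline) and Ptf1a (44.5 and 40.8 TPM) were present. Of 15 acinar markers sought, 11 were not found among the gene identifiers used here. The median gene differed by 0.45 on the log2 scale between AP and saline and by 0.04 between polyI:C+AP and AP. Rescaling the libraries by the median of ratios took the first of these to 0.05, so that receptor changes against saline are also given after that scaling where it matters.

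Sequences are shown for the receptors that had the largest differences between groups. Ccr2 and C5ar1 were also targets of quantitative PCR in the study, with the primer pairs below (5′ to 3′). A search of the GENCODE M21 transcripts found a product of each pair in 1 gene, its target.
Ccr2 forward: atccacggcatactatcaacatc
Ccr2 reverse: caaggctcaccatcatcgtag
C5ar1 forward: atggaccccatagataacagca
C5ar1 reverse: gagtagatgataagggctgcaac
The Ccr2 product of 104 bases lay within exon 3 of a transcript with 4 exons, at chr9:124105715-124105818 (GRCm38, plus strand), so these primers would also copy genomic DNA. The C5ar1 product of 134 bases began across the junction of exons 2 and 3 of a transcript with 3 exons and spanned chr7:16248960-16259147 (GRCm38, minus strand) with the intron between.

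Promoters of the 4 receptors with the largest log2 fold changes in AP against saline are printed, leaving out Fpr1, which has no fold against saline, and motifs of myeloid and inflammatory factors were sought in them. Each is the 250 bases before the RefSeq start site (GRCm38.p6), 5′ to 3′ on the strand of the gene, with motif matches in capitals.
Ccr1 promoter, chr9:123968693-123968942, minus strand: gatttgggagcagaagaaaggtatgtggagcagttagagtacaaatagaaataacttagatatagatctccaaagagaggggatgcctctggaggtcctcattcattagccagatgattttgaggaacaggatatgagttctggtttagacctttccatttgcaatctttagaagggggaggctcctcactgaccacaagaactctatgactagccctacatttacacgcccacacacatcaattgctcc
Ccr2 promoter, chr9:124101933-124102182, plus strand: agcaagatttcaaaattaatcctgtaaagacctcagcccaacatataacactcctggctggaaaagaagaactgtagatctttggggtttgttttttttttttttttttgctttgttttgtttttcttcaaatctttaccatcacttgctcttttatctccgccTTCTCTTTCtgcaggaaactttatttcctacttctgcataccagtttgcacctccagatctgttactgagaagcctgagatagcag
C5ar1 promoter, chr7:16259339-16259588, minus strand: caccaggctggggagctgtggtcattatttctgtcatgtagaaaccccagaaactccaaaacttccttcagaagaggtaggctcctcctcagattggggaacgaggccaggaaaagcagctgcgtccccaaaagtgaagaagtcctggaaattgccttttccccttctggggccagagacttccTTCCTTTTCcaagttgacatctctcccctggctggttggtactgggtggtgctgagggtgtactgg
C3ar1 promoter, chr6:122856158-122856407, minus strand: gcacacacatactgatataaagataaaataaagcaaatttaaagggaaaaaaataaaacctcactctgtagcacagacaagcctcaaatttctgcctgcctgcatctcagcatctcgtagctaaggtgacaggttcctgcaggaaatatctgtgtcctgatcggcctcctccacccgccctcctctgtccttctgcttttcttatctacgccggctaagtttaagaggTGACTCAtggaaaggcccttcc
In 300 bases around the start site (the last 50 after it), the promoters of all 9 receptors were searched on both strands for GAGGAAGT (ETS and PU.1), TTGCNNAA (C/EBP), GAAANNGAA (core of the interferon-stimulated response element), GGANNTTCC (core of the NF-kB site) and TGANTCA (AP-1). GAAANNGAA was found in 2 of them, 86 bases before the start of Ccr2 and 66 bases before that of C5ar1 (counted to the first base of the match, both on the opposite strand), and in 8.56% of 32851 mouse promoters. TGANTCA was found in 1, 22 bases before the start of C3ar1, and in 7.81% of all promoters. The other motifs had no match in the 9 promoters, against 3.20%, 10.8% and 4.26% of all promoters for GAGGAAGT, TTGCNNAA and GGANNTTCC. No capitals stand in the Ccr1 promoter because none of these motifs occurred there. By the GENCODE positions, Ccr2 (chr9:124101950-124113557) and C5ar1 (chr7:16246743-16259540) begin upstream of these RefSeq start sites. The matches in Ccr2 and C5ar1 therefore lie inside the genes as GENCODE places them.

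The CC chemokine receptors Ccr1 and Ccr2 had the largest differences in TPM. Ccr1 (ENSMUSG00000025804, chr9:123962124-123968692) was at 3.14 and 1.49 TPM in saline, 47.6 and 42.1 TPM in AP, and 2.69 and 2.78 TPM in polyI:C+AP. Both AP libraries stood far above the other 4, and the polyI:C+AP libraries lay inside the range of saline. Its mean was 44.8 ± 3.90 TPM (SD, n = 2) in AP against 2.31 ± 1.17 TPM in saline, a ratio of 19.4, and the log2 fold change of TPM + 0.5 was 4.07 ± 0.29 (SE). From AP to polyI:C+AP the log2 fold change of Ccr1 was -3.80 ± 0.29. Against saline, polyI:C+AP differed by 0.27 on the log2 scale, and by -0.11 after median-of-ratios scaling, so that no direction can be given.

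Ccr2 (ENSMUSG00000049103, chr9:124101950-124113557) was at 3.76 and 2.40 TPM in saline, 36.2 and 34.4 TPM in AP and 2.17 and 1.92 TPM in polyI:C+AP. Both AP libraries were close to each other and did not overlap with any other group, while both polyI:C+AP libraries lay just below both saline libraries. Its mean was 3.08 ± 0.961 TPM in saline and 35.3 ± 1.25 TPM in AP, a ratio of 11.5 with a log2 fold change of 3.35 ± 0.20. It was 2.04 ± 0.181 TPM in polyI:C+AP, a log2 fold change of -3.82 ± 0.20 from AP and -0.47 ± 0.20 from saline (-0.85 after median-of-ratios scaling). Of the stretches of 100 bases in Ccr2 transcripts, 0.79% also occurred in another gene, which leaves little room for reads shared between paralogs.

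Cx3cr1, which marks patrolling monocytes and resident macrophages, had a different order of groups. Cx3cr1 (ENSMUSG00000052336, chr9:119901616-120069879) was at 2.57 and 3.05 TPM in saline, 4.35 and 5.98 TPM in AP, and 0.936 and 0.705 TPM in polyI:C+AP. The 3 groups did not overlap, with AP highest and polyI:C+AP below saline. The log2 fold change of Cx3cr1 was 0.77 ± 0.32 for AP against saline (0.39 after scaling), -2.09 ± 0.32 in polyI:C+AP against AP and -1.33 ± 0.32 in polyI:C+AP against saline.

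The CXC receptors were less separated. Cxcr4 (ENSMUSG00000045382, chr1:128588199-128592293) was at 6.83 and 2.80 TPM in saline, 11.1 and 17.0 TPM in AP and 3.52 and 1.34 TPM in polyI:C+AP, so that AP stood above both other groups and those 2 overlapped. The log2 fold change of Cxcr4 was 1.53 ± 0.55 in AP against saline and -2.38 ± 0.55 in polyI:C+AP against AP. Cxcr2 (ENSMUSG00000026180, chr1:74153989-74161246), the neutrophil receptor, was listed at 0.260 and 0 TPM in saline, 0.622 and 1.12 TPM in AP and 0.942 and 0.230 TPM in polyI:C+AP. It had an estimated 9.3 reads at most in any library. With a mean of 0.530 TPM over the 6 libraries, Cxcr2 was below the minimum of 1 TPM for fitting, so its differences between groups were not tested.

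Of the complement receptors, C5ar1 (ENSMUSG00000049130, chr7:16246743-16259540) was at 0.862 and 0.303 TPM in saline, 9.85 and 12.4 TPM in AP and 0.755 and 1.09 TPM in polyI:C+AP. The polyI:C+AP values overlapped with saline and stood far below AP. The log2 fold change of C5ar1 was 3.47 ± 0.40 for AP against saline, where the means were 11.1 ± 1.84 and 0.582 ± 0.395 TPM, and -3.03 ± 0.40 in polyI:C+AP against AP.

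C3ar1 (ENSMUSG00000040552, chr6:122847138-122856161) was at 7.16 and 2.54 TPM in saline, 34.7 and 29.9 TPM in AP and 7.71 and 7.68 TPM in polyI:C+AP. It remained above both saline libraries after polyI:C, although only just above the first of them. The log2 fold change of C3ar1 was 2.76 ± 0.40 in AP against saline, -2.00 ± 0.40 in polyI:C+AP against AP and 0.76 ± 0.40 in polyI:C+AP against saline (0.35 after scaling).

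The formyl peptide receptors were scarce. Fpr1 (ENSMUSG00000045551, chr17:17876471-17883940) was listed at 0 in both saline libraries, at 1.77 and 4.19 TPM in AP and at 0.288 and 1.83 TPM in polyI:C+AP. AP and polyI:C+AP overlapped, with a log2 fold change of -1.27 ± 0.84. No fold is given against saline because both values there are 0, in the libraries with the fewest estimated reads. Fpr2 (ENSMUSG00000052270, chr17:17887824-17893952) was at 1.70 and 0 TPM in saline, 2.79 and 0.734 TPM in AP and 0.379 and 0.602 TPM in polyI:C+AP. Saline and AP overlapped for Fpr2, while both polyI:C+AP libraries lay below both AP libraries by a small margin (log2 fold change -1.03 ± 1.02). In Fpr2 transcripts 12.3% of the 100-base stretches also occurred in the predicted gene Gm5966, so its counts are uncertain, and none of those of Fpr1 were shared.

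**Figure D1:**
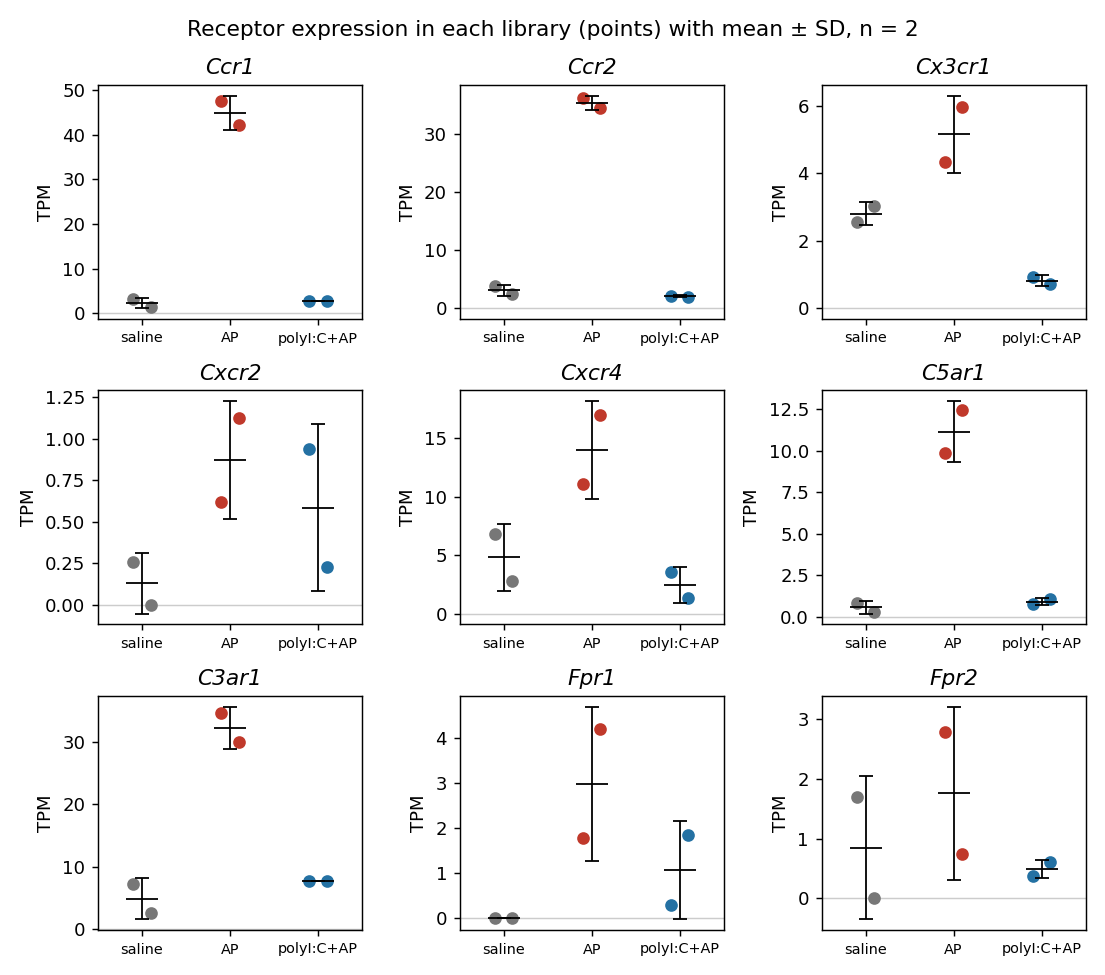
TPM (linear axis, a separate scale for each gene) of the 9 receptors in each of the 6 libraries, as points, with the mean and SD of each group (n = 2) in black. The AP points of Ccr1, Ccr2, C5ar1 and C3ar1 sit clear of both other groups, whereas those of Cxcr2, Fpr1 and Fpr2 spread over the range of another group.

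All 16778 genes averaging 1 TPM or more were fitted with limma, and a gene was past the threshold when its adjusted p was 0.05 or less and it differed 2-fold or more. Of the 8 receptors fitted, 5 were past it and higher in AP than in saline (Ccr1, Ccr2, C5ar1, C3ar1 and Fpr1), and 0 were lower, where 18.2% of all genes were higher and 4.03% lower. Of the 9 receptors, 8 had both AP libraries above both saline libraries (Fpr2 did not), a pattern found in 52.7% of all genes. Between polyI:C+AP and AP, 4 receptors were past the threshold and lower (Ccr1, Ccr2, Cx3cr1 and C5ar1) and 0 were higher, against 0.405% and 0.441% of all genes. Here 7 of 9 had both polyI:C+AP libraries below both AP libraries, all but Cxcr2 and Fpr1, against 22.1% of all genes. Because the receptors were chosen by these same contrasts, nothing is read from these counts. Without any 1 of the 4 AP or polyI:C+AP libraries, 0 receptors were past the threshold in polyI:C+AP against AP. Without either saline library, Cx3cr1 was no longer past it there and C3ar1 was. Leaving out saline mouse 1 also brought Cxcr4 past it in AP against saline and C3ar1 in polyI:C+AP against saline. The call of Fpr1 was lost without either saline mouse or AP mouse 1, and Fpr1 fell under the minimum for fitting without AP mouse 2.

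In polyI:C+AP against saline, 1 receptor was past the threshold and lower (Cx3cr1) and 0 were higher, where 2.99% of all genes were lower and 17.0% higher. Both polyI:C+AP libraries lay above both saline libraries for 2 receptors, C3ar1 and Fpr1 (54.4% of all genes), and below them for 2, Ccr2 and Cx3cr1 (14.0% of all genes). The call of Cx3cr1 was lost without saline mouse 2 or without either polyI:C+AP mouse. Receptors had a median log2 fold change of 2.76 in AP against saline and -0.09 in polyI:C+AP against saline over 7 receptors, Fpr1 left out because saline is listed at 0, and -2.24 in polyI:C+AP against AP over 8, beside 0.45, 0.48 and 0.04 over all genes. The medians of 2.76 and -2.24 both draw on the 2 AP mice, so a high AP value enters each of them.

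**Figure D2:**
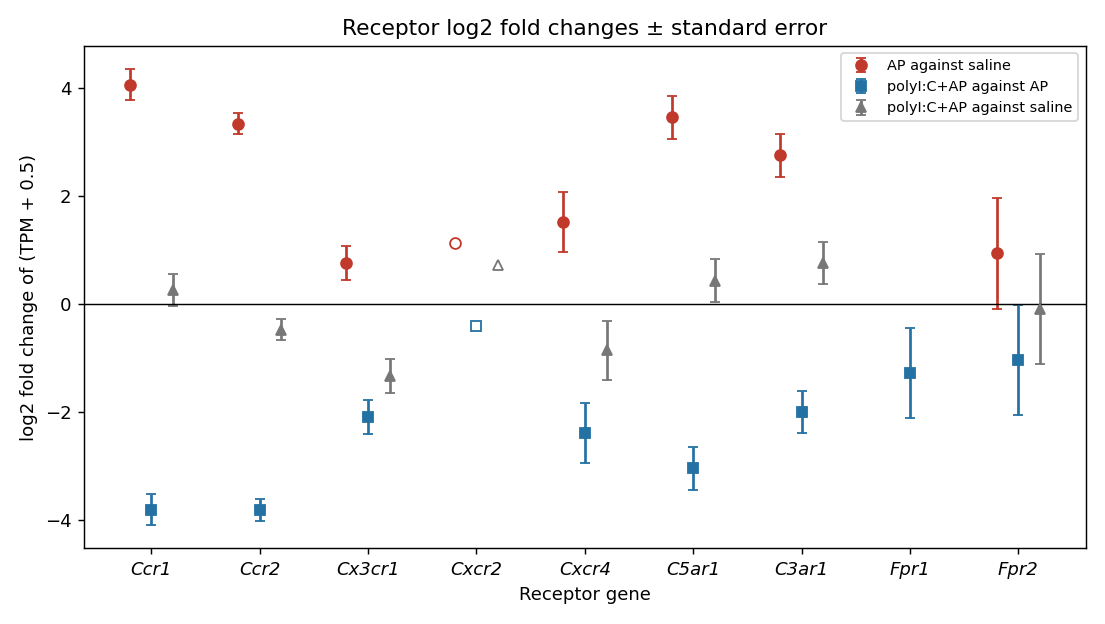
Log2 fold change of TPM + 0.5 (y axis) for each receptor in 3 comparisons, with the standard error of limma as bars. Open symbols mark Cxcr2, which was too low to be fitted, and Fpr1 has no point against saline because it is listed at 0 there. Ccr1 and Ccr2 reach 4.07 and 3.35 in AP against saline and -3.80 and -3.82 in polyI:C+AP against AP, while the values against saline after polyI:C lie between -1.33 and 0.76.

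The order of the receptor levels changed between groups. In AP it ran Ccr1 (44.8 TPM), Ccr2 (35.3 TPM), C3ar1 (32.3 TPM), Cxcr4 (14.0 TPM), C5ar1 (11.1 TPM), Cx3cr1 (5.16 TPM), Fpr1 (2.98 TPM), Fpr2 (1.76 TPM) and Cxcr2 (0.873 TPM). The neighbours Ccr2 and C3ar1, Cxcr4 and C5ar1, Fpr1 and Fpr2, and Fpr2 and Cxcr2 overlapped between their libraries. In saline C3ar1 (4.85 TPM), Cxcr4 (4.82 TPM), Ccr2 (3.08 TPM), Cx3cr1 (2.81 TPM) and Ccr1 (2.31 TPM) led, and each overlapped with the next. In polyI:C+AP C3ar1 (7.69 TPM) stood alone above Ccr1 (2.74 TPM), Cxcr4 (2.43 TPM) and Ccr2 (2.04 TPM), which overlapped with Cxcr4 in their libraries. The 9 receptors summed to 26.3 and 12.6 TPM in saline, 149 and 148 TPM in AP and 19.4 and 18.2 TPM in polyI:C+AP.

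Leukocyte RNA moved in the same direction as the receptors. The 5 markers of all leukocytes summed to 43.8 and 42.2 TPM in saline, 189 and 244 TPM in AP and 53.5 and 52.1 TPM in polyI:C+AP. All 5 rose in AP by the limma threshold, for instance Cd53 by 2.56 (adjusted p = 0.000339) and Coro1a by 2.31 (adjusted p = 0.000241) on the log2 scale, and both of these fell with polyI:C (by 2.17 for Cd53, adjusted p = 0.0155, and by 2.35 for Coro1a, adjusted p = 0.00499). Itgb2, an integrin subunit, rose by 2.14 in AP (adjusted p = 0.00621), and with polyI:C its change was -1.58 (adjusted p = 0.146).

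Receptors were therefore also set against the mean log2(TPM + 0.5) of those 5 markers in the same library. On this scale Ccr1 went from -1.48 in saline to 0.53 in AP and -1.52 in polyI:C+AP, so it changed by 2.01 and -2.05 more than the markers did. Ccr2 changed by 1.29 and -2.06 and C5ar1 by 1.41 and -1.28 relative to the markers. Ccr1, Ccr2 and C5ar1 thus changed by more than the mean of these markers in both steps, and their AP libraries did not overlap with either other group. Other genes were not set on this scale, and large steps were not particular to receptors. Without reference to markers, the log2 fold changes were 3.79 and -2.35 for Fcgr1, 2.44 and -3.68 for Lyz2 and 3.83 and -3.30 for Ccl9. The medians over 13 markers of monocytes and macrophages were 1.86 and -1.27. C3ar1 changed by 0.70 and -0.24 in the group means, but its libraries overlapped in both steps. They stood at -0.12 and -1.16 in saline, 0.32 and -0.20 in AP and -0.25 and -0.11 in polyI:C+AP. Against the monocyte and macrophage markers instead, the steps of C3ar1 were 0.85 and -0.71, and against the neutrophil markers 1.08 and -1.01. On both of these scales its AP libraries lay above the libraries of both other groups. Against the 5 leukocyte markers, Cxcr4 changed by -0.53 and then -0.63, with libraries that overlapped in both steps. Cx3cr1 changed by -1.29 and then -0.33. In the group means these 2 gained less than the markers did in AP. The scarce receptors Cxcr2 and Fpr2 were lower against the markers in AP, by 0.93 and 1.12 on the log2 scale, and Fpr1 was higher by 0.65. All 3 had at least 1 saline library listed at 0. How far the number of leukocytes accounts for the receptor values was not tested.

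**Figure D3:**
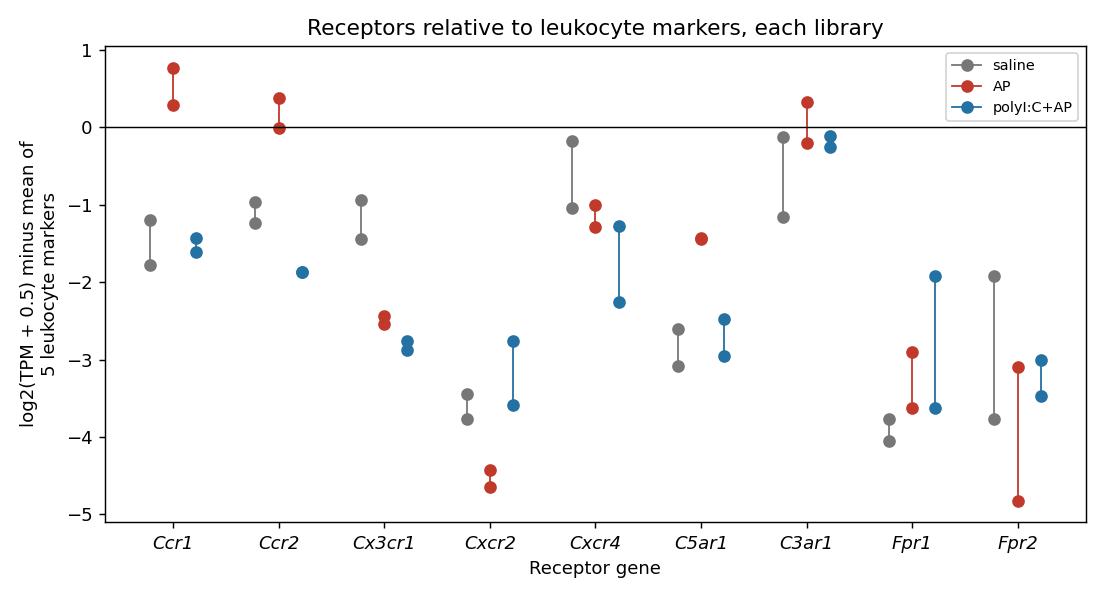
Each receptor's log2(TPM + 0.5) minus the mean of the 5 leukocyte markers in the same library, so that 0 means as high as the markers' mean, with the 2 mice of each group joined by a line. Ccr1, Ccr2 and C5ar1 are higher in AP than in either other group on this scale, while Cx3cr1 is lower in AP than in saline and stays low in polyI:C+AP.

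Markers of single leukocyte types moved as follows, where 18.2% of all genes were past the threshold and higher in AP and 4.03% lower. With polyI:C, 0.441% of all genes were higher and 0.405% lower. The 13 markers of monocytes and macrophages summed to 763 and 494 TPM in saline, 2770 and 3218 TPM in AP and 833 and 692 TPM in polyI:C+AP. Of these 13, 9 rose and 0 fell in AP, and 4 fell and 0 rose with polyI:C (Csf1r, Lyz2, Fcgr1 and Cd163). These 4 calls, like those of Cd53, Coro1a and the acinar markers with polyI:C, were lost without AP mouse 1, AP mouse 2 or polyI:C+AP mouse 2, where 0 genes were called. Lyz2, the lysozyme of myeloid cells, rose by 2.44 in AP (adjusted p = 0.000746) and fell by 3.68 with polyI:C (adjusted p = 0.00418) on the log2 scale. The endotoxin co-receptor Cd14 rose by 3.85 in AP (adjusted p = 1.18e-05), and in polyI:C+AP against AP its change was -0.05 (adjusted p = 0.891), with values of 218 and 222 TPM against 216 and 209 TPM. C1qb, a complement subunit made by macrophages, rose by 1.91 in AP (adjusted p = 0.00361), and its change with polyI:C was -0.94 (adjusted p = 0.256).

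The 10 neutrophil markers in the tables summed to 19.3 and 6.48 TPM in saline, 75.3 and 67.2 TPM in AP and 44.4 and 21.8 TPM in polyI:C+AP. The neutrophil genes Ly6g and Ngp were not found among the gene identifiers used here. In saline 3 of the 10 were listed at 0 in mouse 1 and 5 in mouse 2. Of 7 tested, 3 rose in AP, where 18.2% of all genes did, and 0 passed the threshold with polyI:C (by unadjusted p, 2 were lower). The median log2 fold change of the 7 with polyI:C was -1.07. Of the 10, 6 had both polyI:C+AP libraries below both AP libraries, against 22.1% of all genes. Retnlg rose by 3.41 in AP (adjusted p = 0.007), and with polyI:C its change was -3.00 (adjusted p = 0.101). S100a9 rose by 2.52 (adjusted p = 0.0349), and S100a8, its partner, differed by 2.15 (adjusted p = 0.19). Cxcr2, Fpr1 and Fpr2, receptors that neutrophils carry, were below Retnlg and S100a9 in both AP libraries, while Fpr1, at a mean of 2.98 TPM there, was near Csf3r (3.30 TPM) and Mmp8 (2.37 TPM).

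Among 12 lymphocyte markers, 0 of 6 tested were called in any comparison (by unadjusted p, 0 in AP against saline, 1 lower in polyI:C+AP against AP and 0 in polyI:C+AP against saline), but AP mouse 2 stood apart from AP mouse 1 with a sum of 55.7 against 12.0 TPM. The B cell genes Cd79b and Cd79a were at 19.0 and 8.89 TPM in AP mouse 2 and at 1.56 and 2.89 TPM in AP mouse 1. The receptor Cxcr4, which lymphocytes also carry, was at 17.0 TPM in AP mouse 2 and 11.1 TPM in AP mouse 1, and whether lymphocytes entered that difference was not tested. The 5 endothelial markers summed to between 48.6 and 79.0 TPM in all libraries, and 0 of 5 passed the threshold in any comparison (by unadjusted p, also 0 in each). Dendritic cell markers summed to between 21.4 and 37.2 TPM, most of it Zbtb46, which was lower in AP (log2 fold change -0.73). Of 3 tested, 1 was called higher in AP, Itgax (1.77, adjusted p = 0.0283), 0 were called lower, and 0 were called with polyI:C. The mean log2(TPM + 0.5) of the 6 was 0.83 and 1.26 in saline, 1.79 and 2.06 in AP and 0.84 and 0.67 in polyI:C+AP. Epithelial RNA also moved: 3 of 4 acinar markers fell in AP (4.03% of all genes) and 3 rose with polyI:C (0.441%). Their sum ran from 775 and 964 TPM in saline to 187 and 235 TPM in AP and 478 and 518 TPM in polyI:C+AP. Of 6 duct markers, 4 rose in AP, where 18.2% of all genes did. With polyI:C, 0 of the 6 passed the limma threshold (1 was lower at an unadjusted p under 0.05). Since TPM values are shares of 1 total, the part of these shifts in the receptor values was not tested.

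Ligands of the 9 receptors were measured for 21 of 22 listed genes, and 17 were tested. In AP 9 rose and 0 fell, where 18.2% of all genes rose and 4.03% fell. After median-of-ratios scaling 7 were higher. The median log2 fold change was 2.44 over the 15 that were not listed at 0 in both saline libraries, beside 0.45 over all genes. Ccl2, the main ligand of Ccr2, was at 2.15 and 0.44 TPM in saline, 134 and 124 TPM in AP and 12.0 and 18.3 TPM in polyI:C+AP. It rose by 6.36 on the log2 scale in AP (adjusted p = 0.00017) and was reduced after polyI:C with a log2 fold change of -3.08 (adjusted p = 0.0402), while in polyI:C+AP it was still 3.28 above saline (adjusted p = 0.00208). Ccl7, which also binds Ccr2, rose by 5.97 in AP (adjusted p = 0.000492), and its change with polyI:C was -2.16 (adjusted p = 0.17). Cxcl1, a ligand of Cxcr2, rose by 3.98 in AP (adjusted p = 0.000531), and with polyI:C its change was -1.28 (adjusted p = 0.226).

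Ccl9, a chemokine that binds Ccr1, was at 21.9 and 7.92 TPM in saline, 196 and 194 TPM in AP and 21.3 and 17.6 TPM in polyI:C+AP. It rose by 3.83 in AP (adjusted p = 0.000617) and after polyI:C it decreased by 3.30 (adjusted p = 0.0221), where it was back in the range of saline. Ccl6 rose by 3.53 in AP (adjusted p = 0.00832), to 255 and 257 TPM, and was at 24.8 and 21.1 TPM in polyI:C+AP, where its log2 fold change of -3.46 missed the threshold (adjusted p = 0.0853). Ccl3 and Ccl5, also ligands of Ccr1, were not called in either step. Their log2 fold changes were 1.51 and 1.36 in AP (adjusted p = 0.298 and 0.162). With polyI:C they were -0.27 and 0.20 (adjusted p = 0.948 and 0.939). The other ligands that rose in AP were Ccl8, Ccl12, Ppbp and Anxa1. Compared with saline, 6 ligands were higher in polyI:C+AP and 0 lower (Ccl2, Ccl4, Ccl7, Ccl8, Ccl12 and Cxcl1). Of all genes, 17.0% were higher there and 2.99% lower. The median over the same 15 ligands was 1.24, beside 0.48 over all genes. In polyI:C+AP against AP, 0.405% of all genes were lower and 0.441% higher. Between AP and polyI:C+AP, 2 ligands fell and 0 rose, and without any 1 of the 4 AP or polyI:C+AP libraries 0 were called, with 4 called without either saline library. For polyI:C+AP against saline the count was 3 without polyI:C+AP mouse 1 and 10 without saline mouse 1, and in AP against saline it was 5 without AP mouse 2.

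**Figure D4:**
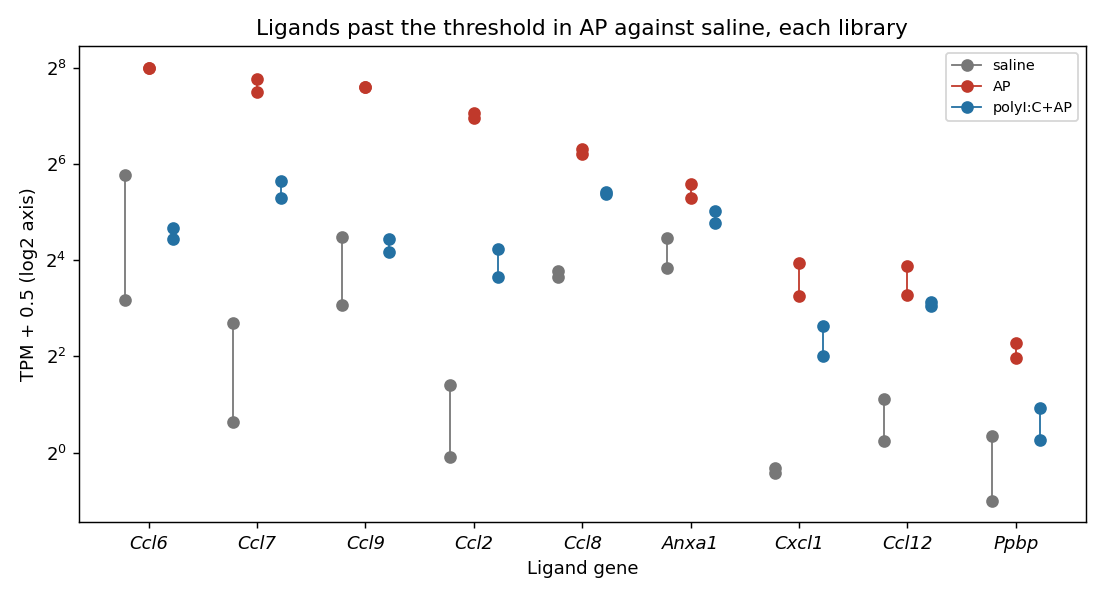
TPM + 0.5 on a log2 axis in each library for the 9 ligands that rose in AP, with the 2 mice of each group joined by a line. AP is the highest group for each of the 9. Ccl9 and Ccl6 return to the range of saline in polyI:C+AP, whereas Ccl2, Ccl7, Ccl8, Cxcl1 and Ccl12 lie between saline and AP.

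Ligands of the remaining receptors differed among themselves. Cxcl12, the ligand of Cxcr4 made by stromal cells, was at 7.73 and 7.97 TPM in saline, 4.15 and 6.89 TPM in AP and 4.74 and 3.24 TPM in polyI:C+AP, and its log2 fold change of -0.51 in AP had an adjusted p of 0.193, while in polyI:C+AP against saline it was -0.92 (adjusted p = 0.0387) and -1.34 after scaling. Cx3cl1 was at 1.76 and 0.77 TPM in saline and 2.57 and 1.43 TPM in AP (log2 fold change 0.52, adjusted p = 0.523). C3, the precursor of C3a, was at 198 and 146 TPM in saline and 217 and 344 TPM in AP (log2 fold change 0.68, adjusted p = 0.0566), and at 321 and 299 TPM in polyI:C+AP (0.87 against saline, adjusted p = 0.0255). After scaling, these log2 fold changes of C3 were 0.25 and 0.41. Anxa1, a ligand of Fpr2, rose by 1.29 in AP (adjusted p = 0.00505), and its change was 0.87 after scaling, less than 2-fold. Saa3, a serum amyloid A protein, was at 39.4 and 3.95 TPM in saline, 4.39 and 14.1 TPM in AP and 43.0 and 45.2 TPM in polyI:C+AP. Both polyI:C+AP libraries lay above both AP libraries for Saa3, but the log2 fold change of 2.40 had an adjusted p of 0.346, and the saline mice differed widely.

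Other receptors of the same families served as a comparison. Of 16 other chemokine receptors measured, 10 were tested, and 2 were higher in AP, 0 lower, with a median log2 fold change of 1.07. Over all genes 18.2% were higher and 4.03% lower, with a median of 0.45, so the count of 2 is near the share over all genes. Without either AP mouse the count was 1. Ccr3, the eosinophil receptor between Ccr1 and Ccr2 on chromosome 9, was at 0 and 0.515 TPM in saline, 4.86 and 3.17 TPM in AP and 0 and 0.371 TPM in polyI:C+AP (log2 fold change 2.64 with adjusted p = 0.0115 in AP, and -2.75 with adjusted p = 0.0902 with polyI:C). With polyI:C 0 of the 10 were called by limma (4 were lower at an unadjusted p under 0.05, and 1 was called in another setting). The scavenging receptor Ackr3 and the receptor Cxcr6 were near their saline values, with log2 fold changes of -0.21 and 0.40 in AP (adjusted p = 0.664 and 0.456).

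Of 10 other chemoattractant receptors 7 were tested, and 2 rose in AP, where 18.2% of all genes did. Their median log2 fold change was 1.19 over the 6 not listed at 0 in both saline libraries, beside 0.45 over all genes. The count was 1 without AP mouse 1, and it was 4 with no filter on low values or a filter of 0.5 TPM in 2 libraries. Ltb4r1, a receptor of the leukotriene B4 made by neutrophils, was listed at 0 in both saline libraries and at 5.71 and 3.72 TPM in AP. In polyI:C+AP it was at 0.547 and 0.653 TPM (log2 fold change against AP -2.22, adjusted p = 0.163 by limma). Ptafr, the receptor of platelet-activating factor, was at 3.39 and 3.71 TPM in saline, 24.3 and 19.8 TPM in AP and 6.08 and 4.67 TPM in polyI:C+AP. It rose by 2.47 on the log2 scale in AP (adjusted p = 0.000324) and fell by 1.95 with polyI:C (adjusted p = 0.0185). S1pr1, which guides lymphocytes and is made by endothelium, was at 15.5 to 20.7 TPM in saline and AP and 16.4 and 12.2 TPM in polyI:C+AP.

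Downstream of the receptors, 24 of 26 signalling genes were tested, and 9 rose and 0 fell in AP, where 18.2% of all genes rose and 4.03% fell. Their median log2 fold change was 0.96, beside 0.45 over all genes. After median-of-ratios scaling 4 were higher and 1 lower. Gnai2, the inhibitory G protein subunit most used by leukocyte receptors, rose by 1.94 (adjusted p = 8.13e-05), and the exchange factors Vav1 and Dock2, which act on Rac, rose by 1.85 (adjusted p = 0.00735) and 1.70 (adjusted p = 0.0012). Rgs2, which shortens G protein signals, rose by 1.57 (adjusted p = 0.000683). With polyI:C only Dock2 of the 24 passed the threshold, and it fell by 1.92 (adjusted p = 0.0184), from 12.0 and 16.7 TPM in AP to 3.60 and 3.16 TPM. Gnai2, which many cell types express, was at 76.9 and 78.9 TPM in AP and 63.1 and 55.7 TPM in polyI:C+AP (log2 fold change -0.39, adjusted p = 0.181). Of all genes, 17.0% were higher and 2.99% lower in polyI:C+AP against saline, near the share among the signalling genes given next. The median log2 fold change there was 0.43 over the 24 signalling genes, beside 0.48 over all genes. In polyI:C+AP against saline, 4 signalling genes were higher and 0 lower (Gnai2, Gnb1, Plcb3 and Vav1), and the count was 2 without polyI:C+AP mouse 2 and 2 after scaling. The count of 9 in AP was 5 without AP mouse 2 and 6 without AP mouse 1, and the call of Dock2 was lost without any 1 of the 4 AP or polyI:C+AP libraries, as was that of Ptafr.

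For each fitted receptor, the protein-coding genes with the nearest pattern were sought among 13507, by the root mean square difference of log2(TPM + 0.5), each gene set to a mean of 0 over the 6 libraries, so that a small value means nearly parallel changes. Nearest to Ccr1 were Ccl9 (0.28) and Ccr2 (0.36), and nearest to Ccr2 were Ccr1 (0.36) and Cd200r1 (0.38). C5ar1 was nearest to Cd200r1 (0.25) and Trem2 (0.30). These 3 receptors thus lay close to each other, with 0.37 between Ccr1 and C5ar1 and 0.44 between Ccr2 and C5ar1.

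The remaining receptors had other neighbours. Cx3cr1 was nearest to Csf1r (0.17), the macrophage growth factor receptor, and H2-DMb1 (0.28). C3ar1 was nearest to Lrrc25 and Plek, at 0.20 each. Cxcr4 was nearest to Cd37 (0.25) and Has1 (0.28), Fpr1 to Tnfrsf11b (0.21) and Ltc4s (0.33), and Fpr2 to Pck1 (0.19) and Cetn1 (0.23). With 6 libraries from 3 groups, nearness mainly shows the same order of group levels, and for the scarce Fpr1 and Fpr2 it also follows the spread between the 2 mice of a group.

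Several of the receptors lie together in the genome. Ccr1 and Ccr2 flank Ccr3 on chromosome 9, with 53280 bases between Ccr1 and Ccr3 and 70261 bases between Ccr3 and Ccr2, and all 3 were highest in AP. Cxcr6 and Xcr1 lie on the other side of Ccr1, and Cxcr6 was at 3.42 and 3.10 TPM in saline, 3.94 and 5.06 TPM in AP and 3.11 and 3.27 TPM in polyI:C+AP. C5ar2, the second C5a receptor, lies 2589 bases from C5ar1 on chromosome 7 and was at 0.503 and 0.247 TPM in saline, 1.03 and 0.978 TPM in AP and 0.504 and 0.267 TPM in polyI:C+AP. Fpr1 and Fpr2 are separated by 3884 bases on chromosome 17 and run in opposite directions.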

How the data were processed

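Whole-pancreas RNA from 6 mice was sequenced as paired ends. According to the study's methods and processing notes, reads were trimmed with Trimmomatic, aligned to mm10 with STAR and counted with HTSeq. Versions are not given in the sources used here, and the labels name both a ribosomal RNA depletion kit and a poly-A kit. The deposited values are TPM per Ensembl gene, computed by the authors in a way not given in the sources used here, and were used as deposited. Symbols, positions and exon lengths came from GENCODE M21 (GRCm38).

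Groups and replicate numbers followed the sample labels. Genes averaging 1 TPM or more, with a known exon length, were fitted with limma 3.58.1 in R 4.3.3 on log2(TPM + 0.5), with 1 coefficient per group, all 6 libraries sharing 1 spread and a prior following mean TPM times exon length. The threshold was a Benjamini-Hochberg adjusted p from limma of 0.05 or less with a difference of 2-fold or more. The fit was tested on simulated data. Reads per library were estimated from the spacing of low TPM times length, of which 51.2% to 62.5% of values lay within 0.1 of a whole multiple, against 19.2% to 20.7% with shuffled lengths. Same-numbered mice did not deviate together, so no block was used. With 2 mice per group the precision is limited, and intervals were not made from the estimated reads.

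The receptors and gene lists were chosen with earlier results of these data known. Named were all 9 receptors, every gene of a list called with polyI:C, up to 3 called in AP with the largest change, the 3 highest markers of a list, the 2 nearest genes of each receptor and, chosen after their values were seen, the ligands and receptors given with other values. Some genes are not reported here.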

Additional observations from a re-analysis of the deposited data

How the results depend on the processing

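The log2 fold changes of Ccr1, Ccr2, C5ar1, C3ar1, Cx3cr1 and Cxcr4 in AP against saline and in polyI:C+AP against AP kept their sign in all 16 alternative settings, whereas Fpr2 in AP against saline kept it in 13 of 14. Since the receptors were selected on these contrasts, this is no sign of stability. Fpr1 was no longer past the threshold in AP with a pseudocount of 1, with median-of-ratios scaling, with voom and without 3 single libraries, and it could not be fitted without AP mouse 2. The number of receptors lower with polyI:C, 4 as reported, was 2 with no filter on low values, 2 with a prior following mean log2 TPM, 1 with one prior for all genes, 3 with a pseudocount of 0.1 and 6 with voom on estimated reads. The cause of these differences was not tested. Fitting only the 2 groups compared left 0 receptors lower in polyI:C+AP against saline.

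Over all genes, median-of-ratios scaling gave 1567 higher and 1225 lower in AP against saline and 1325 and 982 in polyI:C+AP against saline, where the reported counts are 3055, 676, 2844 and 502. Voom gave 1786 higher in AP against saline, 1510 and 815 in polyI:C+AP against saline, and 113 higher and 215 lower in polyI:C+AP against AP, where the reported counts are 74 and 68. There, no filter gave 44 higher, the prior on mean log2 TPM 14 and 14, and one prior 22 and 19.

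Leaving out 1 library at a time, receptors higher in AP numbered 4 to 5, receptors lower with polyI:C 0 to 4, and in polyI:C+AP against saline 0 to 1 were higher (C3ar1 without saline mouse 1) and 0 to 1 lower. Genes called in polyI:C+AP against AP ranged from 0 to 65 higher and 0 to 80 lower, with 0 in both directions without AP mouse 1, AP mouse 2 or polyI:C+AP mouse 2. Genes higher in AP against saline ranged from 1987 to 3165 and lower from 474 to 639. In polyI:C+AP against saline they ranged from 2210 to 2986 higher and 372 to 473 lower. With 1 library in a group, that library was assumed to vary like the others.

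The labels give each group mice 1 and 2, but nothing ties the numbers, and same-numbered mice deviated with correlations of 0.0069, -0.0045 and 0.034. With the replicate number as a block, 3 receptors in place of 4 were lower in polyI:C+AP against AP, among 64 genes higher and 63 lower. For the scarce receptors Cxcr2, Fpr1 and Fpr2, the small numbers of estimated reads limit what these libraries can show.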
